A study of Mus musculus with 6 samples.

Results

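Fibro-adipogenic progenitors are the mesenchymal cells that lie between the fibres of skeletal muscle. They carry the PDGF receptor alpha, support satellite cells after injury by secreted factors and, where repair fails, give rise to matrix-producing fibroblasts and fat cells. In dystrophic muscle they stand beside pericytes, smooth muscle cells and activated myofibroblasts, which share several of their markers. The 10 genes described here are markers of these stromal cells: Pdgfra, Pdgfrb, Osr1, Tcf7l2, Cd34, Dpp4, Thy1, Pi16, Vim and Acta2. They were taken by gene symbol, and all 10 were measured, each by 1 probe set, among 19752 genes with a symbol of their own.

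By its title, the study concerned the effects of removing regulatory T cells on muscle with dystrophy. All samples were skeletal muscle from the mdx strain, in which dystrophin is missing. A group of 3 came from mice given anti-CD25 mAb (clone PC61), which binds a receptor chain that regulatory T cells carry, and the other 3 from mice given rat IgG. Each antibody was given intraperitoneally 2 times, on days 17 and 20 of age, at a dose that the design text states as 100 mg. That text places dissection 7 days after the last injection, which is day 27, whereas the labels give 6 weeks, which is day 42. Every animal is labelled male. Nothing states that samples of a group are different animals. The p-values therefore measure only the spread among these samples, part of which may be technical.

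A single array was run per sample, and precision is limited by their number. Xist, transcribed from the inactive X chromosome, lay between 11.77 and 11.94 log2 units on arrays 1 and 2 of each group, and at 5.48 or 5.49 on the third array of each. Transcripts of the Y chromosome (Kdm5d, Uty and Eif2s3y) lay no higher than 5.09 on the first 4 arrays and no lower than 7.80 on the other 2. Levels from 4 of the 6 arrays thus go against the label male, and each member's difference is given below also among these 4 (Xist-high) arrays and between the other 2 (Xist-low), as are the gene lists that changed direction between them. Across genes, array correlations ran from 0.991 to 0.996 within groups and from 0.992 to 0.995 between groups.

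Stretches of the genome at the start of 3 members are printed here for orientation. Pdgfra and Cd34 are the pair of members with the smallest root mean square difference over the arrays, each relative to its own mean. That measure is also small where genes vary little. Vim was the brightest of the 10 probe sets. Each window holds 250 bases before and 50 bases after a transcript start, 5′ to 3′ on the plus strand of GRCm38.p6, from RefSeq. Capitals mark the letters TATAAA, and lower case has no meaning of its own. The windows are chr5:75152001-75152300 for Pdgfra, chr1:194938571-194938870 for Cd34 and chr2:13574061-13574360 for Vim.
Pdgfra: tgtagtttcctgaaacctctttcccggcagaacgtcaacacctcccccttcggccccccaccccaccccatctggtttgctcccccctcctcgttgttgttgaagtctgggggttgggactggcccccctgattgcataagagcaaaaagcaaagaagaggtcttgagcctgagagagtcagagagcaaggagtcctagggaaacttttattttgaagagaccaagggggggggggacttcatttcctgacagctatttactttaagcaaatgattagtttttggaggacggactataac
Cd34: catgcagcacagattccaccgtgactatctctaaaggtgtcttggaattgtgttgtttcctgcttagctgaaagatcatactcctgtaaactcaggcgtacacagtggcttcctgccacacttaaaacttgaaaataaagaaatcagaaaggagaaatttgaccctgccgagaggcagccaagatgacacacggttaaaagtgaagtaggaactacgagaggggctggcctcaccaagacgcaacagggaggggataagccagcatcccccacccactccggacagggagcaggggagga
Vim: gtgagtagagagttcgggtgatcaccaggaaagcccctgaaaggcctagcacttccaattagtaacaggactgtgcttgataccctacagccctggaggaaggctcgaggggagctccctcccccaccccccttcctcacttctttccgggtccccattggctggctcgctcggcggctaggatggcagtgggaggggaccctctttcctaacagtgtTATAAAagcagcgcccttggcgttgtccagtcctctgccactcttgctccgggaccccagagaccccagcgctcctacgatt
The Vim window holds TATAAA beginning 32 bases before the start, and the Pdgfra and Cd34 windows hold it on neither strand. RefSeq windows were at hand for 7 of the 10 members, 8 windows in all, since Tcf7l2 has 2. TATAAA lies on either strand in 3 of these 8 windows, against 13.6% of all 32851 windows of that length. GGGCGG, the core of a GC box, lies in 1 of the 8, a window of Tcf7l2, against 35.7% of all. These matches describe letters only. Pdgfrb, Osr1 and Thy1 are named without a window.

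Stromal marker levels differed little between muscles of mice given anti-CD25 and rat IgG. Of the 10 members, 5 were higher and 5 lower in the mean with anti-CD25, against 41.1% and 58.9% of all genes. The largest difference, that of Pdgfrb, was 0.18 log2 units. None of the 10 passed limma's test across all genes at an adjusted p of 0.05, where 0% of the 19752 genes passed. At an unadjusted p of 0.05, 1 member passed (Pdgfrb), against 6.28% of all genes. The groups did not overlap in 1 of 10 members, against 11.7% of all genes in either direction and 7.46% with anti-CD25 lower, so the members' share is near the background. The median difference of the members was -0.016, and that of all genes was -0.026. The lean of all genes to lower values varied with brightness. Among genes above the 50th percentile of mean intensity, which include all 10 members, 45.9% were lower and the median was 0.011. The 30% dimmest genes had a median of -0.080. After a second quantile normalization 54.1% of all genes were lower, at a median of -0.012. Arrays differed in spread. Lower quartiles of linear intensity were 51.2 to 51.9 on rat IgG 3, anti-CD25 1 and anti-CD25 2. They were 56.5 to 57.7 on the other arrays. Upper quartiles ran from 428 to 437 and from 407 to 416 on the same sets. The part of array spread in the lean was not tested.

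The precision of these comparisons can be read from the intervals. Limma's 95% intervals, which are not adjusted for the number of genes, reached 0.17 to 0.33 log2 units to each side. All 10 lay within 0.5 log2 units of 0, and the farthest bound, for Pi16, was -0.49, a 1.41-fold lower level. Differences smaller than these could not be told from 0 with 3 arrays a group, and a p above the threshold does not show that a level was the same. In bulk muscle, fewer cells of a type and less RNA per cell cannot be told apart. All 10 members lay above the median intensity of every array, and their means lay between the 63.0th and the 99.8th percentile of all genes. None is therefore among the dim probe sets, where such arrays can understate differences. At the bright end lay Vim, Acta2 and Cd34, at the 99.8th, 98.7th and 98.6th percentile. Whether intensity compressed the members' differences was not tested. Brightness depends on the probes as well as on the RNA, so it does not rank the genes by abundance.

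**Figure D1:**
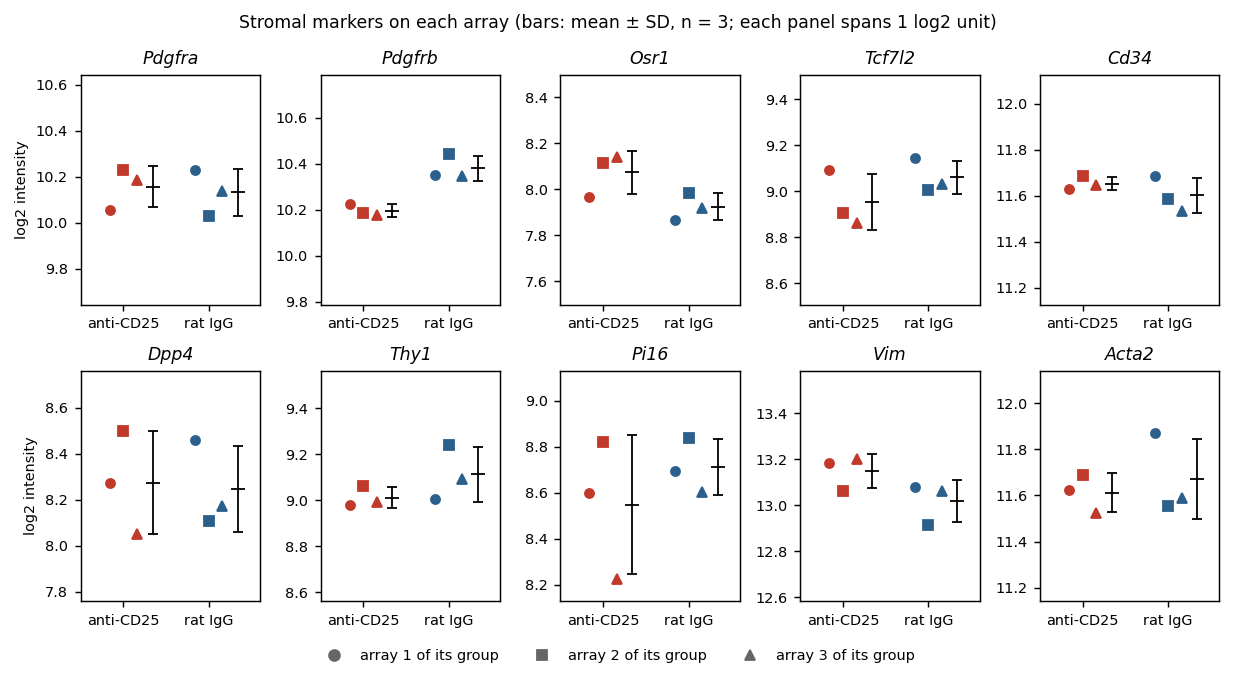
Log2 intensity of the 10 stromal markers on each array, with anti-CD25 on the left and rat IgG on the right of each panel; points are arrays, bars are mean ± SD (n = 3), and each panel spans 1 log2 unit. The groups overlap in every panel but that of Pdgfrb, where all 3 anti-CD25 arrays lie below all 3 rat IgG arrays.

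Among the receptors, Pdgfra, which encodes the receptor that defines fibro-adipogenic progenitors, was nearly level. It measured 10.06, 10.23 and 10.19 log2 units on anti-CD25 arrays 1, 2 and 3, against 10.23, 10.03 and 10.14 on rat IgG arrays 1, 2 and 3. The groups overlapped over most of their range, and the lowest array, rat IgG 2, lay beside the lowest anti-CD25 array. The means were 10.16 ± 0.090 with anti-CD25 and 10.13 ± 0.10 with rat IgG (SD, n = 3 each), a difference of 0.025 (95% interval -0.18 to 0.23, limma adjusted p = 0.962). Its sign turned to -0.027 without rat IgG 2 and to -0.011 without anti-CD25 2. The difference was 0.014 among the 4 Xist-high arrays and 0.047 between the other 2.

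Pdgfrb encodes the receptor of pericytes and other mural cells, which fibro-adipogenic progenitors also carry. It measured 10.23, 10.18 and 10.18 log2 units on the anti-CD25 arrays and 10.35, 10.44 and 10.35 on the rat IgG arrays. Every anti-CD25 array lay below every rat IgG array, and the anti-CD25 arrays lay closer together. The means were 10.20 ± 0.028 with anti-CD25 and 10.38 ± 0.054 with rat IgG (SD, n = 3 each). The difference of -0.18 (SE 0.077, 95% interval -0.36 to -0.011), a ratio of 0.880, was larger than the spread within either group. It did not pass across all genes (limma adjusted p = 0.750, unadjusted p = 0.0400), and it ranked 1004th of all genes by p. An exact permutation of the arrays (two-sided) gave p = 0.1, the smallest that 3 against 3 arrays can give. The difference was -0.19 among the 4 Xist-high arrays and -0.17 between the other 2, and it ran from -0.20 to -0.15 with any 1 array left out.

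The ligands of these receptors were all measured. Pdgfb, the ligand through which endothelial cells recruit pericytes, measured 9.33, 9.37 and 9.05 log2 units with anti-CD25, against 9.38, 9.47 and 9.47 with rat IgG. Pdgfa, a ligand of the alpha receptor, measured 9.32, 9.42 and 9.37 with anti-CD25, against 9.54, 9.49 and 9.48 with rat IgG. Both lay lower on every anti-CD25 array, by -0.19 (SE 0.10) for Pdgfb and -0.13 (SE 0.076) for Pdgfa, and neither passed the test. The Pdgfb difference was -0.089 without anti-CD25 3. The other ligands, Pdgfc at 0.066 and Pdgfd at 0.036, had overlapping groups, and both differences were below 0 without rat IgG 2.

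The transcription factors Osr1 and Tcf7l2 are used to mark connective tissue cells of muscle, Osr1 in the embryo and after injury and Tcf7l2 in fibroblasts and progenitors of adult muscle. Osr1 measured 7.97, 8.12 and 8.14 log2 units on the anti-CD25 arrays and 7.87, 7.98 and 7.92 on the rat IgG arrays. Only anti-CD25 1 and rat IgG 2 crossed over. The means were 8.07 ± 0.093 with anti-CD25 and 7.92 ± 0.059 with rat IgG (SD, n = 3 each). The difference was 0.15 (95% interval -0.040 to 0.34, limma adjusted p = 0.750), with 0.12 among the 4 Xist-high arrays and 0.22 between the other 2.

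Tcf7l2 ran the other way. It measured 9.09, 8.91 and 8.86 log2 units with anti-CD25, against 9.14, 9.01 and 9.03 with rat IgG, and anti-CD25 1 lay within the rat IgG range. Its difference was -0.11 (95% interval -0.31 to 0.10, limma adjusted p = 0.803), or -0.18 without anti-CD25 1 and -0.062 without anti-CD25 3. It was -0.076 among the 4 Xist-high arrays and -0.17 between the other 2. Osr1 and Tcf7l2 lay on opposite sides of their own means on 5 of the 6 arrays, so these markers of overlapping cell populations did not vary together here.

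Among the surface markers, Cd34, a sialomucin of fibro-adipogenic progenitors, endothelial cells and satellite cells, varied least. It measured 11.63, 11.68 and 11.65 log2 units on the anti-CD25 arrays and 11.68, 11.59 and 11.53 on the rat IgG arrays. The groups overlapped through rat IgG 1. The difference was 0.052 (95% interval -0.13 to 0.23, limma adjusted p = 0.900). Leaving out rat IgG 3 gave 0.018, leaving out rat IgG 1 gave 0.093, and a second quantile normalization gave 0.011. Among the 4 Xist-high arrays it was 0.021, and between the other 2 it was 0.11. The SD of Cd34 over all 6 arrays was 0.059, at the 7.73th percentile of all genes. Cd34 and Pdgfra were the closest pair among the members, with a root mean square difference of 0.063 log2 units between their levels after each was set relative to its own mean.

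Thy1, a glycolipid-anchored protein of fibroblasts that T cells and neurons carry too, measured 8.98, 9.06 and 8.99 log2 units with anti-CD25. With rat IgG it measured 9.00, 9.24 and 9.09. Rat IgG 2 was the high array, and the other 5 lay within a narrow range. The difference was -0.10 (95% interval -0.30 to 0.099, limma adjusted p = 0.807), and it was -0.036 without rat IgG 2 and -0.16 without rat IgG 1. It was -0.10 among the 4 Xist-high arrays and -0.099 between the other 2.

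Dpp4, a cell surface peptidase, and Pi16, a peptidase inhibitor, mark the fibroblasts around vessels that are held to be a source of other fibroblasts. Both varied more than the other members. Dpp4 measured 8.27, 8.50 and 8.05 log2 units on the anti-CD25 arrays and 8.46, 8.11 and 8.17 on the rat IgG arrays. Its groups overlapped almost fully, with a difference of 0.028 (95% interval -0.28 to 0.33, limma adjusted p = 0.973). That sign was not stable: it turned to -0.00077 after a second quantile normalization, to -0.12 between the 2 Xist-low arrays (0.10 among the other 4), and below 0 without rat IgG 2, rat IgG 3 or anti-CD25 2.

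Pi16 measured 8.60, 8.82 and 8.22 log2 units on the anti-CD25 arrays and 8.69, 8.84 and 8.60 on the rat IgG arrays. Anti-CD25 3 stood below the other 5 arrays for Pi16, at 0.41 below the 6-array mean, and it was the lowest array for Dpp4 too, at 0.21 below. The Pi16 difference was -0.16 (95% interval -0.49 to 0.17, limma adjusted p = 0.810), and it was -0.00097 without anti-CD25 3. It was -0.056 among the 4 Xist-high arrays and -0.38 between the other 2. The SD over the 6 arrays was 0.22 for Pi16 and 0.19 for Dpp4, at the 89.4th and 79.0th percentile of all genes.

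**Figure D2:**
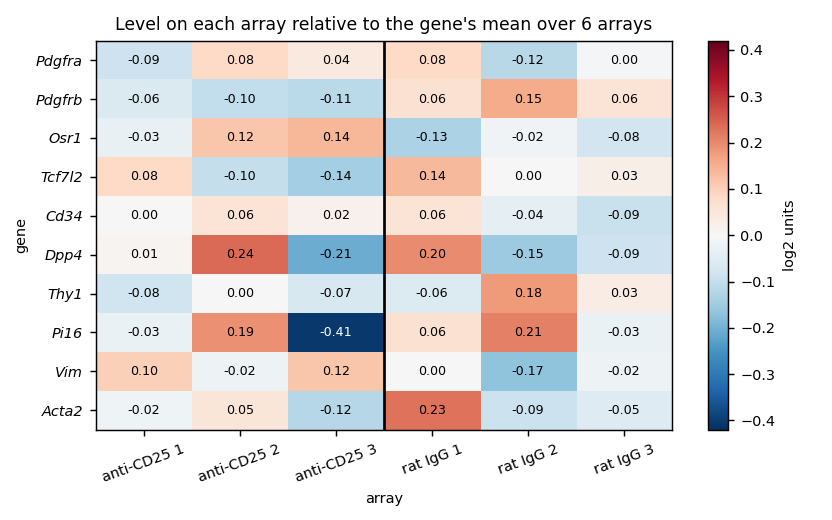
Level of each stromal marker (rows) on each array (columns) in log2 units relative to the gene's mean over the 6 arrays, with anti-CD25 arrays left of the black line and rat IgG arrays right of it. The widest departure is Pi16 on anti-CD25 3, at -0.41, and Cd34 and Pdgfra stay within 0.12 of their means on every array.

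Of the cytoskeletal members, Vim encodes vimentin, the intermediate filament of mesenchymal cells and of leukocytes. It measured 13.18, 13.06 and 13.20 log2 units on the anti-CD25 arrays and 13.08, 12.91 and 13.06 on the rat IgG arrays. Anti-CD25 1 and 3 were the highest arrays, rat IgG 2 the lowest, and anti-CD25 2 lay within the rat IgG range. The means were 13.15 ± 0.075 with anti-CD25 and 13.02 ± 0.091 with rat IgG (SD, n = 3 each). The difference was 0.13 (95% interval -0.066 to 0.32, limma adjusted p = 0.765), and it was 0.077 without rat IgG 2. It was 0.13 among the 4 Xist-high arrays and 0.14 between the other 2.

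Macrophages also contain vimentin, and the arrays at both ends for Vim were also those at both ends for macrophage genes, though anti-CD25 3 was the highest for Vim and anti-CD25 1 for the list. The mean of 9 macrophage genes, relative to the 6-array mean, was 0.34, -0.055 and 0.22 on anti-CD25 arrays 1, 2 and 3, against -0.17, -0.39 and 0.041 on rat IgG arrays 1, 2 and 3. The 2 arrays highest for Vim were the 2 highest for this list, and rat IgG 2 was lowest for both. All 9 genes were higher in the mean with anti-CD25, at a median of 0.30, led by Mertk at 0.71 (SE 0.16) and Cd68 at 0.45 (SE 0.17), and none passed the test. Between the 2 Xist-low arrays 6 of the 9 were higher and 3 lower, with Cd14 at -0.30, Itgam at -0.096 and C1qa at -0.019, and the median was 0.21. Among the other 4 arrays all 9 were higher, at a median of 0.37. Summed over the list, linear intensity ranged from 12472 to 17234 with anti-CD25 and from 10289 to 12817 with rat IgG. No gene of the list lay below the median intensity of all genes, the dimmest being Cd14 at a mean of 7.59 log2 units. The part of macrophages in the Vim difference was not tested.

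Acta2, smooth muscle alpha-actin, marks smooth muscle around vessels and myofibroblasts. It measured 11.62, 11.69 and 11.52 log2 units with anti-CD25, against 11.87, 11.55 and 11.59 with rat IgG. Rat IgG 1 was the highest array, and the other 5 overlapped. The difference was -0.057 (95% interval -0.30 to 0.18, limma adjusted p = 0.918) and turned to 0.043 without rat IgG 1. It was -0.054 among the 4 Xist-high arrays and -0.064 between the other 2.

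**Figure D3:**
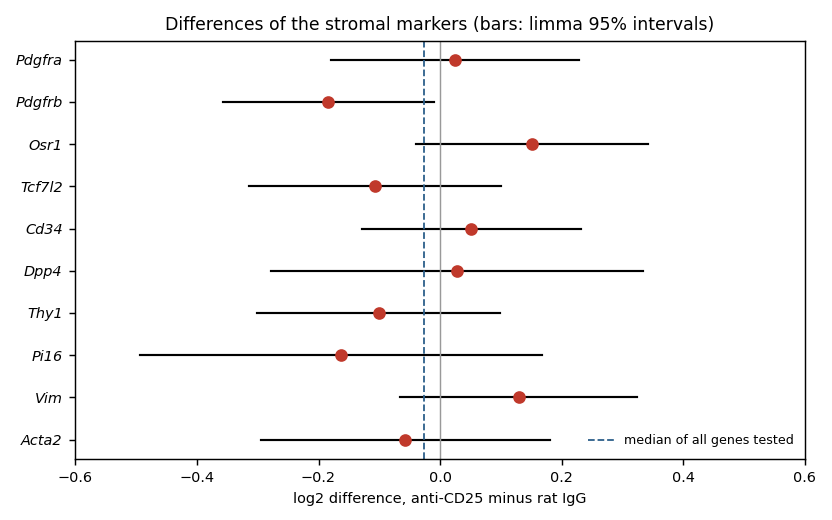
Log2 difference, anti-CD25 minus rat IgG, for each stromal marker (points) with limma's 95% interval (bars); the dashed line is the median of all genes tested, -0.026. Every interval lies within 0.5 log2 units of 0, and the interval of Pdgfrb alone leaves out 0, before adjustment for the number of genes.

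The 3 genes whose levels over the 6 arrays lay closest to those of Pdgfra were Hnrnpul2, Ggps1 and Tvp23a. Their root mean square differences from it, after each gene was set relative to its own mean, were 0.0105, 0.0145 and 0.0152 log2 units. In all, 4501 genes lay within 0.1 of Pdgfra by this measure, and the median gene lay at 0.139, so a close pattern was common among genes that vary little. Cd34 ranked 922nd of all genes in likeness to Pdgfra, and it was the nearest member.

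Other genes of mesenchymal progenitors and fibroblasts gave no call either. Of 26 listed genes, 24 were measured, 8 were higher and 16 lower in the mean with anti-CD25, and none passed in either direction. Their median difference was -0.052, against -0.026 for all genes, and it stayed below 0 in each setting in which it was computed. Hic1, a transcriptional repressor that marks quiescent mesenchymal progenitors, measured 8.34, 8.37 and 8.42 log2 units with anti-CD25, against 8.72, 8.95 and 8.60 with rat IgG. Its groups did not overlap, and the difference was -0.38 (SE 0.10), with -0.48 among the 4 Xist-high arrays and -0.18 between the other 2. Osr2, the relative of Osr1, measured 7.07, 6.99 and 7.01 with anti-CD25, against 7.41, 7.29 and 7.17 with rat IgG, and differed by -0.27 (SE 0.088). The largest difference of the list ran the other way. Bst1, a surface enzyme of stromal cells, measured 7.80, 7.84 and 7.98 with anti-CD25, against 7.29, 7.22 and 7.83 with rat IgG, and differed by 0.42 (SE 0.15), with 0.56 among the 4 Xist-high arrays and 0.15 between the other 2. Its groups overlapped through rat IgG 3. The groups did not overlap in 3 of the 24 genes, Hic1, Osr2 and Smoc2, all lower with anti-CD25, which is near the background of 11.7% in either direction and 7.46% lower. Bst1 and Smoc2 were named after their values were seen. Ly6a and Fbn1 are not analysed here.

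Factors that fibro-adipogenic progenitors release were spread about 0, with 5 of 11 higher, 6 lower and none past the test. Among the 4 Xist-high arrays 8 were higher and 3 lower, and between the other 2 arrays 3 were higher and 8 lower. Cxcl12, a chemokine that holds progenitors in their niche, differed by -0.13 (SE 0.099). Il33, an alarmin on which muscle regulatory T cells depend, differed by 0.13 (SE 0.12). It differed by 0.26 among the 4 Xist-high arrays and -0.13 between the other 2.

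Myofibroblast genes other than Acta2 leaned higher, with 8 of 9 measured genes above 0, a median of 0.14 and none past the test. That count was not stable: after a second quantile normalization 5 were higher and 4 lower, and between the 2 Xist-low arrays 4 were higher and 5 lower. The median was 0.10 after that normalization, 0.032 without rat IgG 2 and -0.010 between the 2 Xist-low arrays. Ccn2, the connective tissue growth factor, measured 11.33, 11.76 and 11.65 log2 units with anti-CD25, against 9.89, 10.55 and 11.66 with rat IgG. Rat IgG 1 and 2 were the low arrays, while rat IgG 3 lay among the anti-CD25 arrays. The difference was 0.88 (SE 0.36), 0.47 without rat IgG 1, 1.32 among the 4 Xist-high arrays and -0.010 between the other 2. Cnn1, calponin of smooth muscle, differed by 0.20 (SE 0.094), with no overlap. Lrrc15, a membrane protein of myofibroblasts, was the gene below 0, at -0.057, as Acta2 was.

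Pericyte and smooth muscle genes were lower in 10 of 15 and higher in 5, with a median of -0.058 and none past the test. That median was -0.0039 among the 4 Xist-high arrays, with 7 higher and 8 lower, and -0.11 between the other 2. Leaving out rat IgG 1 gave -0.11, leaving out rat IgG 2 gave -0.018, leaving out rat IgG 3 gave -0.015, and leaving out anti-CD25 3 gave -0.025. Kcnj8, a potassium channel subunit of pericytes, measured 9.08, 8.91 and 8.67 log2 units with anti-CD25, against 9.14, 9.46 and 9.12 with rat IgG, and differed by -0.36 (SE 0.13). Actg2, smooth muscle gamma-actin, lay higher on every anti-CD25 array, by 0.28 (SE 0.085). Rgs5, another pericyte marker, differed by 0.040, and Cspg4, which encodes NG2, by -0.25 (SE 0.10); both were named after their values were seen. The list mean relative to its 6-array mean was -0.034, 0.035 and -0.060 on the anti-CD25 arrays and -0.057, 0.080 and 0.036 on the rat IgG arrays. Its groups overlapped, unlike those of Pdgfrb, but that mean joins genes that ran both ways. Notch3 at -0.15 and Abcc9 at -0.13 were lower too, while Myh11 at 0.16, Rgs4 at 0.12 and Steap4 at 0.060 were higher. Summed intensity ran from 17387 to 18576 with anti-CD25 and from 18032 to 19085 with rat IgG. Des, the brightest gene of the list, weighs most in that sum, at 12.96 log2 units with anti-CD25 and 12.99 with rat IgG. The sum thus follows Des more than any other gene, and it is not read as a level of mural cells. Of the list's 15 genes, 4 lay below the median intensity of all genes, the dimmest being Higd1b at 5.78 log2 units. The part of mural cells in the Pdgfrb difference was not tested.

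**Figure D4:**
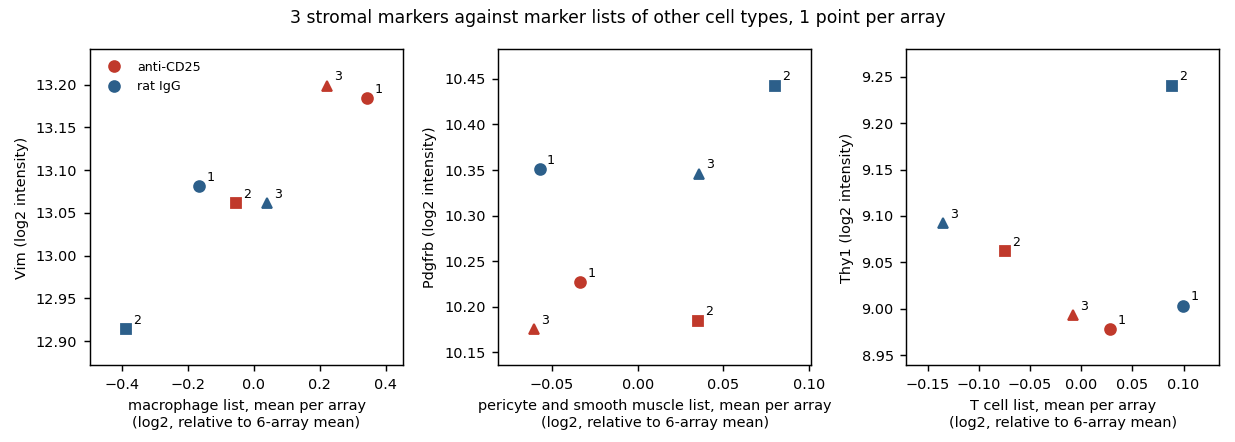
Log2 intensity of Vim, Pdgfrb and Thy1 (vertical) against the mean of a marker list of another cell type on the same array (horizontal, log2 relative to the 6-array mean); each point is 1 array, numbered within its group. For Vim, anti-CD25 1 and 3 lie at the upper right and rat IgG 2 at the lower left of the macrophage panel, while Pdgfrb separates the groups at overlapping levels of the pericyte and smooth muscle list.

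Genes of fat cells, the other fate of fibro-adipogenic progenitors, were higher in 6 of 8, with a median of 0.093 that was -0.030 between the 2 Xist-low arrays, and none passed. Fabp4, a fatty acid carrier, measured 11.33, 11.34 and 11.17 log2 units with anti-CD25, against 11.14, 11.15 and 11.01 with rat IgG, and differed by 0.18 (SE 0.087). Pparg, the regulator of fat cell differentiation, also differed by 0.18 (SE 0.095). Tenocyte genes had 4 of 6 lower and a median of -0.065, with Scx at -0.18 (SE 0.15) and Fmod at -0.10 (SE 0.15). That median was -0.41 between the 2 Xist-low arrays and 0.11 within the other 4. The tenocyte mean per array was -0.24 on anti-CD25 3, the lowest of the 6 arrays, which was also the array lowest for Pi16 and Dpp4. The next lowest for tenocyte genes, rat IgG 1 at -0.16, lay above the 6-array mean for Pi16 (0.063) and Dpp4 (0.20). The part of tendon tissue in those levels was not tested.

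Cells that share single members gave no call either. Endothelial genes, which bear on Cd34, had 5 of 8 lower and a median of -0.0017, with Kdr at -0.27 (SE 0.12) and Tek at -0.20 (SE 0.13). All 8 were lower after a second quantile normalization (median -0.034) and without rat IgG 1 (median -0.085), whereas 5 were higher after median centring (median 0.0062). Among the 4 Xist-high arrays 6 were higher and 2 lower, and between the other 2 arrays 1 was higher and 7 lower. The summed endothelial intensity ran from 6771 to 7201 with anti-CD25 and from 6706 to 7320 with rat IgG. Of 9 measured T cell genes, which bear on Thy1, 6 were lower and 3 higher, with Cd2 at 0.16 (SE 0.11) and Cd8a at -0.12 (SE 0.11). Between the 2 Xist-low arrays 6 were higher and 3 lower. All but 1 of these 9 lay below the median intensity, with Cd3d dimmest at 4.95 log2 units, and their sum ran from 725 to 798 with anti-CD25 and from 719 to 822 with rat IgG. Rat IgG 1 and 2 were the highest arrays for the T cell list, at 0.10 and 0.089. Rat IgG 2 was the highest for Thy1, but rat IgG 1 lay below the 6-array mean of Thy1, at -0.058. The part of T cells in the Thy1 difference was not tested. Satellite cell genes had a median of -0.14 with 5 of 8 lower. The largest test statistics were those of Calcr, which differed by -0.16 (SE 0.081), and Itga7, which differed by -0.15 (SE 0.080). The 4 measured Schwann cell genes were all lower in the mean, with Sox10 at -0.21 (SE 0.12) and Ngfr at -0.20 (SE 0.22), and all 4 were higher between the 2 Xist-low arrays. Without rat IgG 2, the highest array for this list, 2 were higher and 2 lower, the median was 0.0019 and Ngfr was at -0.0088. Muscle fibre genes had a median of -0.018, which was 0.0057 among the 4 Xist-high arrays, with Actn3 at -0.086 (SE 0.076) and Mb at -0.11 (SE 0.10). Mb, the dimmest of these 9 genes, lay at the 99.6th percentile of mean intensity. The part of that brightness in the small fibre differences was not tested.

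**Figure D5:**
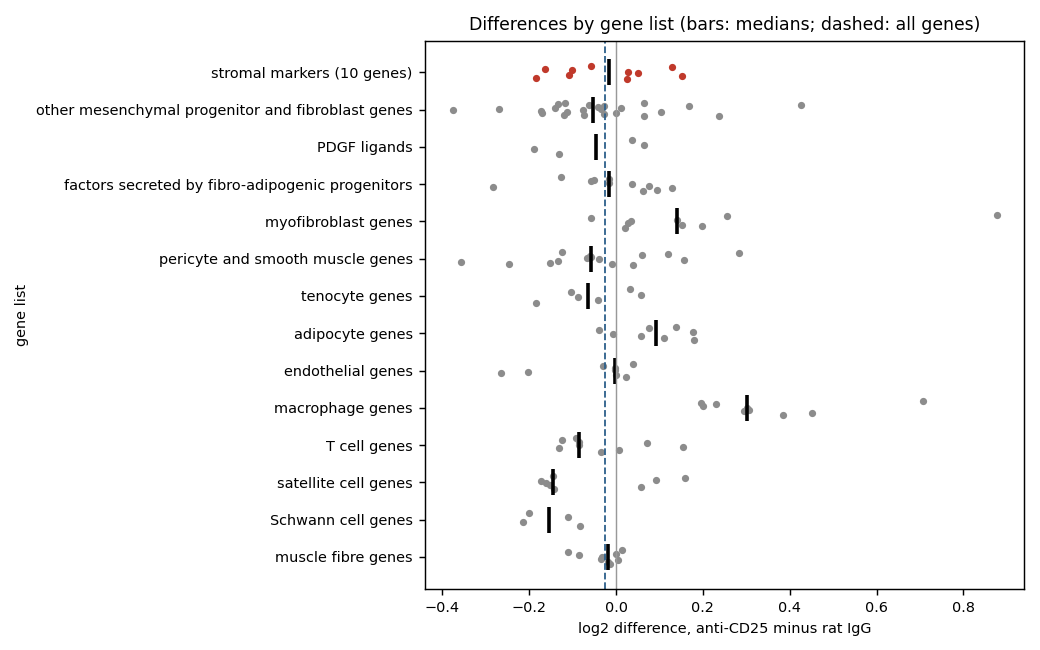
Log2 difference, anti-CD25 minus rat IgG, of every measured gene (points) in the stromal marker set and 13 other lists, with each list's median (black bars) and the median of all genes (dashed line). The 10 stromal markers lie between -0.18 and 0.15, and the macrophage median, at 0.30, is the highest of the lists drawn.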

How the data were processed

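RNA from frozen skeletal muscle was biotin-labelled and hybridised to Affymetrix arrays, as the labels' protocols say. A single table was deposited by the authors, holding intensity values for 24922 probe sets on 6 arrays. Per the submitters' processing notes these come from Affymetrix Power Tools and RMA, which corrects background, normalizes quantiles and summarises probe sets; no tool version is given here. Because the intensity values deposited are linear, log2 was taken, with no pseudocount and no filter. Quantile normalization hides overall shifts between arrays. The deposited values had medians of 149.8 to 151.5 on the arrays but still differed in spread, by the quartiles given above.

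Platform annotation gave 1 symbol to 21425 probe sets, several to 1399 (not used) and none to 2098. The probe set of highest mean stood for a gene with more than 1, leaving 19752 genes. Symbols were checked by Entrez identifier against GRCm38.p6. Each gene was tested with limma 3.58.1 in R 4.3.3 (lmFit, eBayes, two-sided, treatment as the only term), with Benjamini-Hochberg adjustment over all genes and a threshold of 0.05. Code was tested on simulated data.

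The members and lists were chosen with earlier results of these data known. Genes named outside the members are the 2 with the largest statistic in each list, the 3 closest to Pdgfra, and Xist with 3 Y-linked genes. Others (Pdgfc, Pdgfd, Bst1, Smoc2, Lrrc15, Cspg4, Rgs5, Notch3, Abcc9, Myh11, Rgs4, Steap4, Des, Higd1b, Cd14, Itgam, C1qa and Cd3d) were named after their values were seen. Older symbols were matched by synonym, and 134 of 140 list entries were measured. Same-numbered samples of the 2 groups did not deviate together (correlations 0.030, -0.0067 and -0.17, against -0.20 to 0.15 for different numbers). The numbers were therefore not taken as pairs. With 3 arrays a group this check cannot exclude pairing, and array 3 was the Xist-low array in both groups. Alternatives were other normalizations, variance models, array weights, intensity filters, averaging of probe sets, a replicate block, Xist as a covariate or a split, and each array left out.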

Additional observations from a re-analysis of the deposited data

How the results depend on the processing

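No member passed limma's adjusted threshold in any of the 16 alternatives that give a test, as in the analysis reported (0 members at adjusted p, 1 at unadjusted p under 0.05), and with each array left out in turn the count ran from 0 to 0. With the titles' sample number as a replicate block, 0 members and 0 genes passed, Pdgfrb had an unadjusted p of 0.0949 and an adjusted p of 0.919 (limma), and no call changed. The unadjusted limma p of Pdgfrb was also above 0.05 with Xist as a covariate (0.0607) and among the 4 Xist-high arrays (0.0816). With 1 array left out it ran from 0.047 to 0.115, below 0.05 only without rat IgG 3. It was below 0.05 in the other settings tested. The count of genes past the threshold was 0 in 15 of the alternatives and, over the arrays left out, ran from 0 to 7, with 7 without rat IgG 3; the analysis reported had 1240 genes at unadjusted p under 0.05. Pdgfrb, Osr1, Tcf7l2, Cd34, Thy1, Pi16 and Vim kept their sign in all 17 alternatives. Pdgfrb ran from -0.21 to -0.15 over them, with adjusted p no lower than 0.304. Pdgfra turned to -0.027 and -0.011, Dpp4 to -0.042, -0.0094 and -0.085 and Acta2 to 0.043 when 1 array was left out. Their ranges over the arrays left out were -0.027 to 0.075 for Pdgfra, -0.085 to 0.14 for Dpp4 and -0.12 to 0.043 for Acta2. Dpp4 was -0.00077 after a second quantile normalization and -0.12 between the 2 Xist-low arrays. The median difference of the members, -0.016, was -0.081 between those 2 arrays, and with each array left out it ran from -0.084 to 0.058, above 0 without rat IgG 1 (0.058) or anti-CD25 3 (0.0044). The cause of these shifts was not tested. With 3 arrays a group, differences inside the intervals given could not be resolved. All members were brighter than the array medians, but no measure of background was computed, so its part in their differences was not tested.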
